A study of Mus musculus with 2 samples.

Results

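Nkx6.1 occupied 11 listed sites around Tle3 in mouse pancreatic islets, of 15239 sites in the whole list. Peaks were taken as members when their centre lay in chr9:61120000-61370000 (mm9), the Tle3 gene with about 100 kb on each side. The gene was placed at about 61.22 to 61.266 Mb on the plus strand. This approximate position was not checked against an mm9 annotation here, and since it is rounded to about 1 kb, so is every distance from the gene start. Whether a peak lies in an exon, an intron or a UTR was not analysed here. The locus was selected on the number and closeness of its listed peaks in these same libraries, so both are given as a description, with no test.

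The study prepared 1 Nkx6.1 ChIP-seq library and 1 input library from mouse islets of C57Bl/6 background. The number of mice, and whether both libraries came from the same islets, was not established here. In ChIP-seq, chromatin bound by a factor is pulled down with an antibody and sequenced. Input is the same kind of chromatin without the antibody, and a tag is one aligned read. No genotype, treatment, age or sex was given for either library, and the islet is a mixed tissue in which beta cells are accompanied by other endocrine cells. With 1 library per group there is no replicate check, and intervals below cover counting error only, at 95%. The ChIP library held 202780986 tags.

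Nkx6.1, a homeodomain protein, is a transcription factor needed by beta cells for their identity and for insulin secretion. Homeodomain proteins contact short DNA sequences built around a TAAT core. Tle3 encodes a corepressor of the Groucho family. These proteins do not bind DNA themselves, and are brought to target genes by transcription factors, Nkx6 proteins among them. In the RefSeq gene order of the GRCm38 assembly, Tle3 stands between 2 long non-coding RNA genes, Gm34157 before it and Gm34322 after it. The nearest protein-coding genes on the 2 sides are Uaca, 20 places before Tle3 in this order, and Rplp1, 9 places after it.

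The peaks fell into a dense group at the gene start and 4 outlying peaks. The group held 7 peaks, from 5.94 kb before the start to 7.08 kb past it, and covered 13.2 kb (chr9:61213998-61227150). By centre, 3 of the 11 peaks lay before the rounded gene start, 5 past it in the first part of the gene, 1 of them too close to the start to be placed on either side, and 3 past the gene's end. From the last peak in the gene to the gene's end, 38.9 kb of the 46 kb gene held no listed peak. The group was bordered by 59.3 kb without a listed peak before it and 89.3 kb after it.

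**Figure D1:**
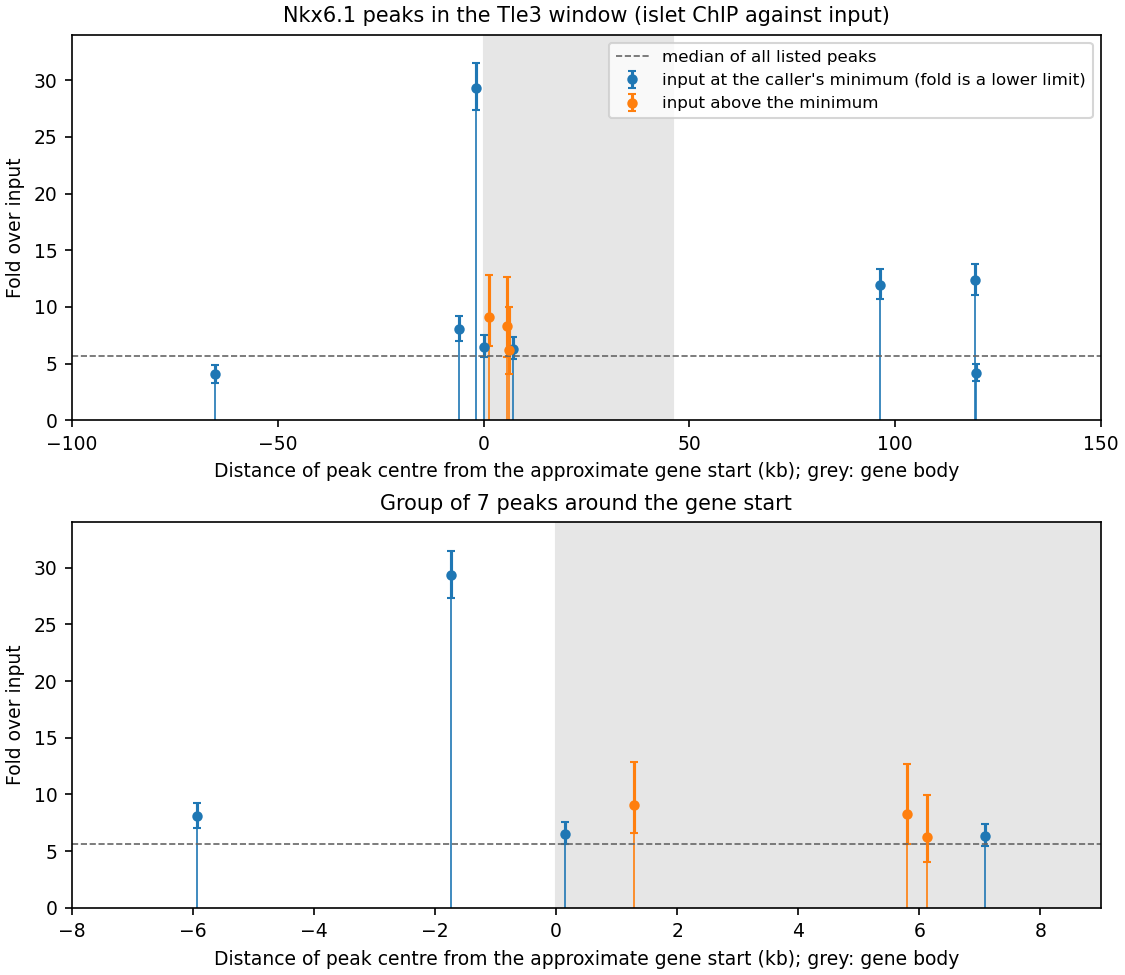
Fold over input (y axis) of the 11 Tle3 peaks against the distance of each peak centre from the approximate gene start in kb (x axis), for the whole window above and the group of 7 below. Points are peaks, bars are 95% counting intervals, the grey area is the gene body, and the dashed line is the median of all listed peaks, 5.63. Where input stands at the caller's minimum (blue), the fold is a lower limit and the bar covers the ChIP tags alone. Where input is above it (orange), the bar covers ChIP and input, so the 2 kinds of bar are not comparable. The peak 1.73 kb before the start stands highest, at 29.3-fold.

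The bases just before the gene start are shown because a peak centre lay within 0.153 kb of the rounded start. The sequence is the RefSeq promoter entry for Tle3, cut at the earliest annotated start (GRCm38.p6, chr9:61372116-61372325, plus strand, 210 bases). Capitals mark the letters of the TAAT core on either strand. GRCm38 and mm9 positions differ, so no peak was placed on this sequence.
Tle3: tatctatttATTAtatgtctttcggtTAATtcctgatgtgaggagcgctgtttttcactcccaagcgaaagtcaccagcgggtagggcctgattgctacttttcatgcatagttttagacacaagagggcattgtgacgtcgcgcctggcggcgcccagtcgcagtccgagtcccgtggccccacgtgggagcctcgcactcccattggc

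The sequence held 2 TAAT cores, read on both strands, 201 and 184 bases before the earliest start. Of 32851 promoter entries, each cut to its first 210 bases, 51.3% held at least 1 such core and 27.3% held 2 or more, so this number is common. The cut was set by the start of Tle3 and not by that of each gene, so entries were matched in length only. The longer homeodomain sequence TTAATTA, searched on both strands and overlapping the core, was found in 2.51% of entries and not in that of Tle3. Peak sequences in mm9 were not analysed here, so these letters describe the promoter window and not the bound sites.

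The strongest site lay 1.73 kb before the gene start, at chr9:61218200-61218332. It had 797 ChIP tags (743 to 854), while its input stood at 21.4 tags, the lowest value in the list and taken as the floor that the peak caller sets for lower input counts. Its deposited fold over input of 29.3 (27.4 to 31.5, from the ChIP tags alone) is therefore a lower limit. All folds over input divide the deposited ChIP value, in which 1 ChIP tag counts 0.788 (628.3 at this site), by the input. They are thus lower than the printed ChIP tags divided by the printed input tags. By the caller's score, 781, this site ranked 136 of 15239 in the list and 8 of 843 on chromosome 9. Only 0.63% of listed peaks had a higher fold.

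The second strongest site by ChIP tags lay 1.29 kb past the start, at chr9:61221223-61221355. With 460 ChIP tags (419 to 504) against 40 in input, it reached 9.07-fold (6.56 to 12.9), below the deposited folds of 12.4 and 11.96 at the sites past the gene's end. The site before the start thus held 1.73 times as many ChIP tags (1.54 to 1.95). These 2 sites flank a weaker one, chr9:61220087-61220219, 0.153 kb past the rounded start, with 177 ChIP tags (152 to 205) and a fold of at least 6.51 (5.59 to 7.55). Given the rounding, this site cannot be put on one side of the start. It lay 1.89 kb from the strongest site and 1.14 kb from the second.

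Farther into the gene lay a tight set of 3 sites. The first, 5.79 kb past the start at chr9:61225726-61225858, reached 8.28-fold (5.61 to 12.7), with 294 ChIP tags (261 to 330) against 28 in input. A second site lay 329 bp on, at chr9:61226055-61226187, at 6.24-fold (4.07 to 9.98), with 190 ChIP tags (164 to 219) against 24 in input. The caller does not list peaks under 266 bp apart, so this pair is near the closest it can report. The last of the 3, at chr9:61227018-61227150, lay 963 bp farther, with 172 ChIP tags (147 to 200) and a fold of at least 6.33 (5.42 to 7.36). At the other end of the group, 5.94 kb before the start, the site at chr9:61213998-61214130 had 219 ChIP tags (191 to 250) and a fold of at least 8.06 (7.03 to 9.21).

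The 4 outlying peaks all had input at the minimum. A single weak site lay 65.2 kb before the start, at chr9:61154706-61154838, with 110 ChIP tags (90.4 to 133) and a fold of at least 4.05 (3.33 to 4.88). It is near the bottom of the list, which begins at 109 ChIP tags. Past the gene's end, the site at chr9:61316354-61316486, 50.4 kb beyond it, had 325 ChIP tags (291 to 362) and a fold of at least 11.96 (10.7 to 13.3). The site at chr9:61339293-61339425, 73.4 kb beyond the end, had 336 ChIP tags (301 to 374) and a fold of at least 12.4 (11.1 to 13.8). A weak companion lay 359 bp from it, at chr9:61339652-61339784, with 113 ChIP tags (93.1 to 136) and a fold of at least 4.16 (3.43 to 5.005).

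**Figure D2:**
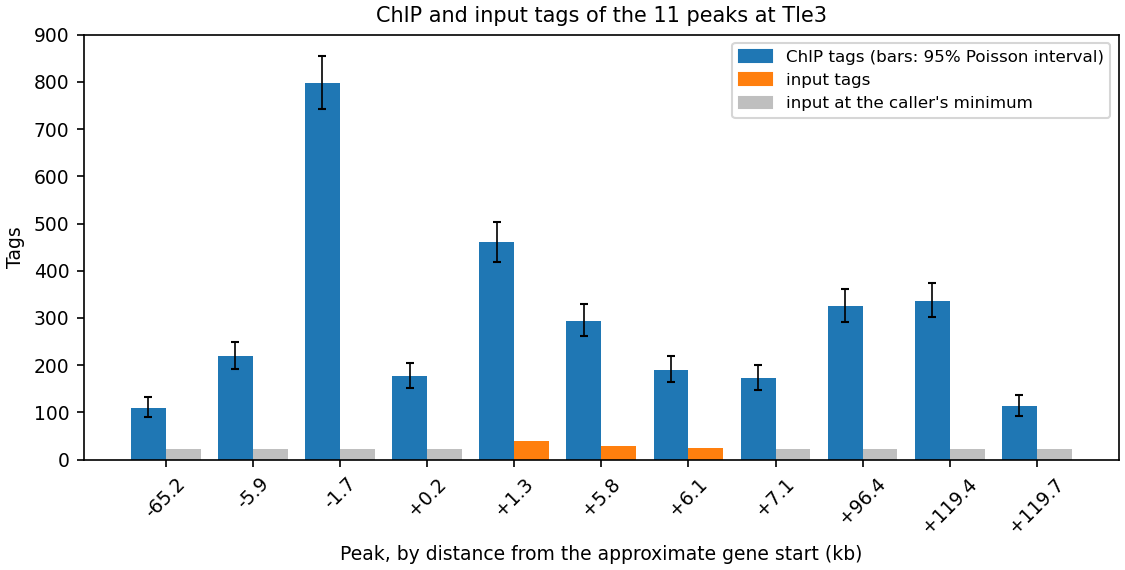
ChIP tags (blue, with 95% Poisson intervals) and input tags (orange, or grey where input stands at the caller's minimum of 21.4) on the y axis for each of the 11 peaks, ordered along the x axis by distance from the approximate gene start in kb. The ChIP bars are not scaled to input: in the folds 1 ChIP tag counts 0.788. The peaks 1.73 kb before and 1.29 kb past the start are the highest, with 797 and 460 ChIP tags, and only the 3 peaks between 1.29 and 6.12 kb past the start have input above the minimum.

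Ordered by ChIP tags, the 2 strongest sites stood apart from each other and from the rest by more than counting error. The site at 73.4 kb beyond the gene's end followed, and the second site exceeded it by 1.37 times (1.19 to 1.58). Below it, neighbours in the order were not resolved between 336, 325 and 294 tags, between 219, 190, 177 and 172 tags, or between 113 and 110 tags. Steps larger than counting error separated these 3 sets, at 1.34 times (1.12 to 1.61) and 1.52 times (1.19 to 1.95). Only neighbours in the order were compared, so peaks at the ends of a set may differ by more than counting error. The file headers do not state over what width the caller counted tags, and whether the pairs 329 and 359 bp apart share tags was not tested.

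The folds of the Tle3 peaks ran from 4.05 to 29.3, where those of the list ran from 4 to 62.4. Of the 11, 6 reached 8-fold over input, where 24.1% of listed peaks did. At 5-fold the count was 9, against 64.5% of the list, and at 20-fold it was 1, against 2.32%. The median deposited fold was 8.06 against 5.63 in the list, given as a description with no test, since these are peaks of 1 locus in 1 library. The median score was 229 against 175. Input stood above the minimum for 3 of the 11, against 32.9% of the list, and the 40 input tags at the site 1.29 kb past the start were reached by 2.83% of listed peaks.

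The 2 sites with most ChIP tags also had the most sharply placed tags. The focus ratio, a fraction that the caller gives for how well the tags of both strands sit around a single point, was 0.94 at the site before the start and 0.961 at the site 1.29 kb past it. The other 9 peaks ran from 0.621 to 0.83, around the list's median of 0.775. A focus ratio of 0.9 or more, a level chosen after these values were seen, was reached by 4.95% of all listed peaks. Among the 752 peaks with at least 460 ChIP tags it was reached by 18.2%. The lowest value, 0.621, belonged to the weak companion peak beyond the gene.

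Sites of the group at the gene start stood in surroundings rich in ChIP tags. The caller also gives the fold of each peak over its surrounding 10000 bp. In the group this local fold, as deposited, was below the fold over input for 6 of 7 peaks. The exception was the site 1.29 kb past the start (10.19 against 9.07), where the interval of the fold over input (6.56 to 12.9) held both values. By the deposited folds this was so for 3.52% of the whole list, for 227 of the 1135 peaks in groups of 3 or more, and for 0 of the 4 outlying Tle3 peaks. Where input stands at the minimum the fold over input is a lower limit, as for the 4 outlying peaks and 67.1% of the list. A true input below it could only add to these counts. Counting error is not in them. At the sites 5.79, 6.12 and 7.08 kb past the start, the local folds were 8.04, 5.06 and 5.43. Each lay within the interval of the fold over input (5.61 to 12.7, 4.07 to 9.98 and 5.42 to 7.36). The strongest site stood 20.3-fold over its surroundings against at least 29.3-fold over input, and the site nearest the start stood 4.35-fold against at least 6.51-fold. A local fold of 8 or more was reached by 5 of the 11 peaks, against 74.2% of the list.

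**Figure D3:**
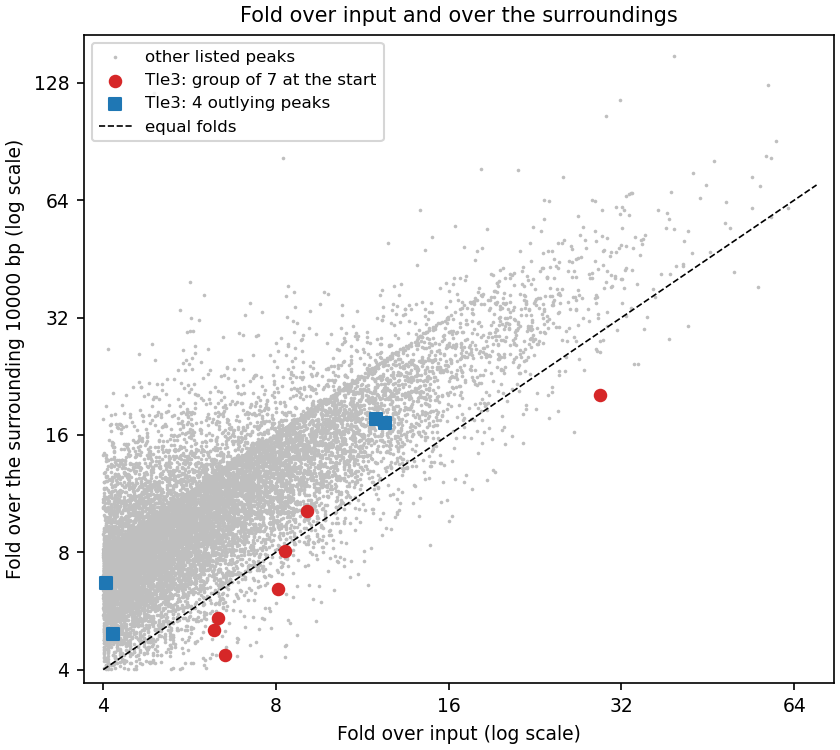
Fold over the surrounding 10000 bp (y axis, log scale) against fold over input (x axis, log scale) for all listed peaks, with the group of 7 at the Tle3 start in red, the 4 outlying Tle3 peaks in blue and all others in grey. Of the red points 6 of 7 lie below the dashed line of equal folds, while the 4 blue points lie above it.

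The level of the surroundings can be read by dividing the deposited ChIP tag value by the local fold. On that scale, in which 1 ChIP tag counts 0.788, the 7 peaks of the group had surroundings of 24.97 to 35.6, against a median of 13.6 over the list. The lowest level in the list was 10.6, and whether the caller sets a floor there, as taken for input, was not tested. The outlying 4 had 13.0 to 18.0. The highest of these levels, 35.6 at the site 1.29 kb past the start, was the highest of the 843 peaks on chromosome 9 and ranked 20 in the whole list. For each of the 7, at most 2.04% of the list had a higher level. Peaks in groups of 3 or more had a median of 18.6 and isolated peaks 12.7, so the level moved with grouping across the list. In the 20 groups of 5 or more peaks, formed by linking centres at most 10 kb apart, the group medians of this level ran from 14.8 to 31.2 with a median of 21.0. The group at Tle3 had 29.6, and 3 of the others were higher. How much of it at Tle3 comes from tags of the neighbouring peaks, which lie within the same 10000 bp, was not tested.

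The number and closeness of the peaks were set beside the rest of the genome. In 10238 fixed windows of 250 kb on the nuclear chromosomes, the median was 1 peak, 42.1% held none, and 17 windows, or 0.166%, held 11 or more. The highest held 14. The Tle3 window was laid over the gene and is not one of these fixed windows. In the 20 groups of 5 or more peaks, the mean distance between neighbours ran from 1.65 to 7.5 kb with a median of 4.72 kb. It was 2.17 kb at Tle3, where 1 other group was tighter. The strongest member of these groups had a median fold of 10.5, and the 29.3-fold site at Tle3 was the highest among them.

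**Figure D4:**
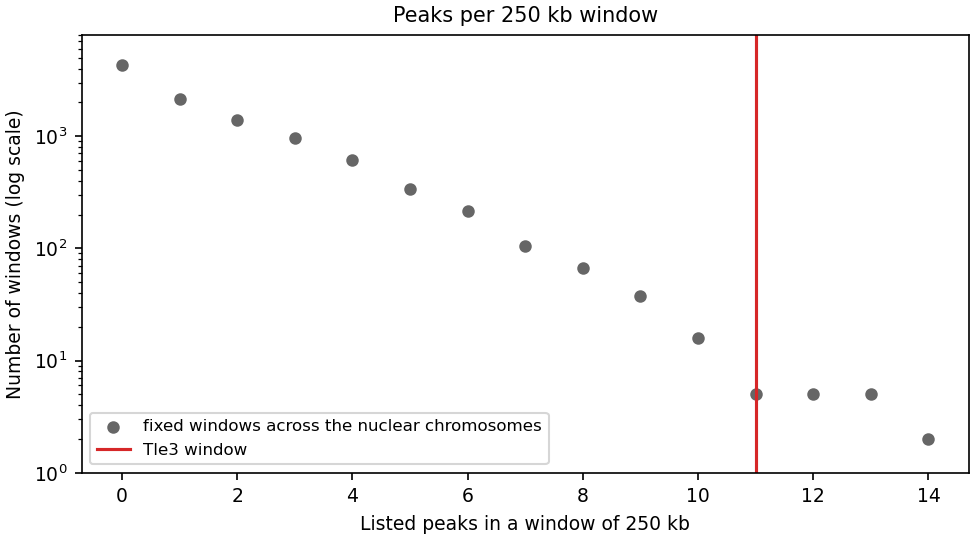
Number of fixed 250 kb windows (y axis, log scale) by the number of listed peaks they held (x axis), over the nuclear chromosomes. The red line marks the 11 peaks of the Tle3 window, a number reached or passed by 17 of the 10238 windows.

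The only other group of 7 peaks lay on chromosome 10 (chr10:59484431-59505369, mm9) and was wider, at 20.9 kb with a mean distance of 3.47 kb between neighbours. Its strongest site had 707 ChIP tags at 24.2-fold, its median fold was 8.29 against 8.06 at Tle3, and 4 of its 7 peaks also had input at the minimum. Its surroundings ran from 17.5 to 30.8, and local fold was below fold over input for 4 of its 7 peaks, against 6 at Tle3. Its focus ratios ended at 0.839, below those of the 2 Tle3 sites with most ChIP tags. No test of these differences was possible with 1 library per group.

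Just outside the window the nearest listed peaks were of very different strength. On the far side, 230.9 kb past the start, chr9:61450848-61450980 had 615 ChIP tags (567 to 666) and a fold of at least 22.6, with a local fold of 37.96 and surroundings of 12.8. It thus held more ChIP tags than any Tle3 peak except the one 1.73 kb before the start. It lay 80.9 kb beyond the window, whose last member, with 113 ChIP tags, lay 30.3 kb inside it. On the near side, 208 kb before the start, chr9:61011768-61011900 had 148 ChIP tags (125 to 174) and a fold of at least 5.45. That peak lay 108 kb outside the window, and the first member, with 110 ChIP tags, lay 34.8 kb inside it.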

How the data were processed

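One deposited peak list was used. Per the file headers, HOMER findPeaks (factor style) compared ChIP with input at a false discovery rate of 0.001 and gave each peak 133 bp. The same headers require 4-fold enrichment both over input and over the surrounding 10000 bp, with Poisson p-values up to 0.0001, and limit tags per position to 10. Bowtie and the mm9 build are named in the submitters' processing notes, without version or settings. The normalized tag signal was scaled by the authors to 10000000 tags and was used only for the order of the peaks. The ChIP tag signal was deposited in steps of 0.788, and 100% of peaks gave a whole number, within 0.1, when divided by it. These whole numbers are the ChIP tags given above, while the folds over input rest on the deposited signal. The input signal was deposited as whole numbers from 22 up, or as 21.4. The fold ratios, the focus ratio (a fraction) and the peak score are as deposited by the authors, and the deposited p-value columns were not used.

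ChIP tags carry exact Poisson intervals. Folds over input above the minimum, and ratios between peaks, carry exact conditional (Clopper-Pearson) intervals. Folds at the minimum carry the ChIP interval alone, so the input's error is not in them. PCR copies without molecular identifiers are not independent, so intervals cover counting error only. Every peak of the window is named, with the nearest peak on each side and any other group at least as large. The locus, its window and these choices were made with earlier results of these data known. Other Groucho family genes were not analysed here, as no mm9 annotation was used. Interval and grouping functions were tested on simulated data. Scripts ran under Python 3.11.15; scipy 1.17.1 gave the intervals, pandas 2.3.3 and numpy 2.4.6 the summaries, and matplotlib 3.10.9 the plots.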

Additional observations from a re-analysis of the deposited data

How the results depend on the processing

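With about 50 kb on each side of the gene, in place of 100 kb, the window held 7 peaks in place of 11, which were those of the group at the gene start. The site 50.4 kb beyond the gene's end missed this limit by less than the rounding of the gene's position, so this count depends on that rounding. The window held 12 with 200 kb, 9 with peaks at 5-fold or more, 9 among peaks scoring above the list's median and 8 with peaks under 1 kb apart joined. The largest group had 7 peaks with centres linked at 5, 10 or 25 kb. The count of 6 peaks at 8-fold or more became 9 at 5-fold, 1 at 20-fold and 5 for 8-fold over the surroundings. The median fold of 8.06 was 7.74 with 1 tag added to each side, 6.68 over the surroundings and 8.28 in the 3 peaks with input above the minimum. The median score of 229 was 297 in those 3 peaks. By centre or by whole interval, 3 peaks lay before the rounded start. No paired analysis was possible because ChIP and input have 1 library each. For the 8 of 11 peaks with input at the minimum the fold is only a lower limit, and sites with fewer than 109 ChIP tags are outside what this list can show.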
